A study of Homo sapiens with 18 samples.

Results

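The EGF receptor family and its ligands were described here as 10 genes of 60675 listed in the deposited tables, chosen by name: the receptors EGFR, ERBB2 and ERBB3 and the ligands EREG, AREG, HBEGF, TGFA, BTC, NRG1 and EGF. The rule used gene names only. Their RNA was measured in U87, an established human glioblastoma line with no genetic modification recorded. Cells received bexarotene, A34, A41, A80 or A98 at 100 nM, or ethanol as vehicle, and RNA was taken after 24 h. Each of these 6 groups had 3 libraries. Bexarotene is a rexinoid in clinical use, a ligand of the retinoid X receptors, and the other 4 rexinoids are known here by their codes alone. Ethanol and bexarotene were the study's controls, so the questions are what each rexinoid did relative to ethanol and how the coded compounds stood to bexarotene.

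The receptors of this family are tyrosine kinases that pair on the cell surface once a ligand is bound. They signal through RAS and the kinases RAF, MEK and ERK, and through PI3K and AKT. The ligands are made as membrane proteins and are released by metalloproteases of the ADAM family, so that cells can stimulate themselves or their neighbours. EGF, TGFA and AREG bind EGFR, while EREG, HBEGF and BTC bind EGFR and ERBB4. NRG1, a neuregulin, binds ERBB3 and ERBB4. EGFR is often amplified or mutated in glioblastoma.

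Libraries rested on 1.31 to 3.89 gigabases of aligned sequence (median 2.08). Ribosomal RNA took 56.1% of TPM in A41 replicate 2, 44.9% in bexarotene replicate 1 and 35.5% in ethanol replicate 2, while 15 libraries held 0.365% to 4.43%. The unit used is therefore scaled TPM, that is, TPM (a length-corrected share of each library's transcripts) divided by a median-of-ratios factor for each library. Of the glial and glioma markers, VIM averaged 4035 scaled TPM, CD44 1009 and CLU 198, while GFAP averaged 0.783 and S100B was listed at 0 in 17 of 18 libraries. CYP26B1, DHRS3, ABCA1 and SCD are retinoid and lipid target genes. They rose (limma adjusted p under 0.05) in all 5 comparisons with ethanol, 4 of 4 in each. Of all tested genes, 0.0328% (A98) to 0.755% (A41) passed in either direction. These 4 genes were chosen with earlier results of these data known, so they are no independent check that the compounds acted. These are bulk samples, so fewer cells making a transcript and less of it per cell cannot be told apart.

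In U87 cells 4 ligand genes and 1 receptor gene of the family averaged 19.0 scaled TPM or more. One of these ligand genes, NRG1, had a mean coverage of only 0.201 reads per base, which limits how firmly its level can be read. Over all 18 libraries TGFA averaged 81.7 scaled TPM (range 46.2 to 144), EREG 80.1 (42.6 to 106), NRG1 38.1 (27.0 to 51.2), EGFR 36.3 (28.5 to 48.0) and HBEGF 19.0 (14.1 to 26.9). ERBB2, the receptor with no known ligand of its own and a preferred pairing partner, averaged 1.70 scaled TPM and BTC 1.33. EGF itself lay between 0.188 and 0.597 scaled TPM. ERBB3, which has a weak kinase and carries binding sites for PI3K, reached at most 0.405 and was listed at 0 in 3 libraries. AREG was listed at 0 in 15 of 18 libraries and its highest value was 0.125.

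Some neighbours in this order were not separated. TGFA was above EREG in 10 of 18 libraries, NRG1 above EGFR in 13 and ERBB2 above BTC in 10. In all 18 libraries EREG was above NRG1, EGFR above HBEGF, HBEGF above ERBB2, and BTC above EGF. The order was the same with TPM as deposited. It was not the same by coverage, the mean reads per base of a gene, where EREG came first with 76.5, TGFA second with 60.1 and NRG1 only in position 8 with 0.201. Of the other family genes, NRG4 averaged 10.0 and NRG2 3.15 scaled TPM, while the receptor ERBB4 averaged 0.0328, NRG3 0.0308 and EPGN 0.133.

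**Figure D1:**
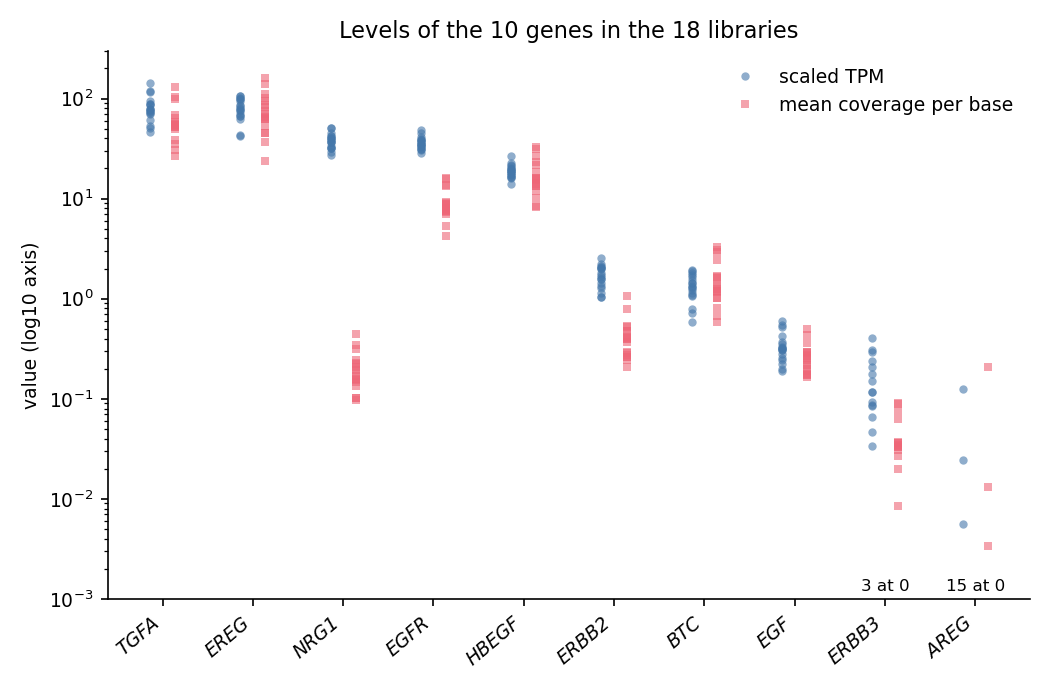
Levels of the 10 genes in the 18 libraries on a log10 axis, as scaled TPM (circles) and as the deposited mean coverage in reads per base (squares), 1 point per library. Values at 0 are not drawn and their number is printed at the foot. TGFA and EREG lie highest by both measures, and NRG1 drops from 38.1 scaled TPM to a mean coverage of 0.201.

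Epiregulin and amphiregulin are encoded side by side on chromosome 4 with 1 listed gene between them, yet EREG was one of the most abundant members and AREG was listed at or near 0. EREG (ENSG00000124882) lies at chr4:74365145-74388749 on the plus strand and AREG (ENSG00000109321) at chr4:74445136-74455005 on the same strand, with 56386 bases between them, on GRCh38. EPGN ends 48355 bases before EREG, and the nearer end of BTC, which is on the minus strand, lies 289753 bases beyond AREG. HBEGF (ENSG00000113070) lies apart from this cluster, at chr5:140332843-140346603 on the minus strand. The 250 bases before the start of these 3 genes, from RefSeq on GRCh38.p14, are shown because EREG changed with A41, AREG is its neighbour listed at or near 0, and HBEGF had negative fold changes beside EREG. They are read 5′ to 3′ on the strand of the gene, from chr4:74364895-74365144 for EREG, chr4:74444886-74445135 for AREG and chr5:140346604-140346853 (minus strand) for HBEGF. Capitals mark matches, on either strand, to a nuclear receptor half-site (AGGTCA), an AP-1 site (TGANTCA), a CRE (TGACGTCA), a GC box (GGGCGG) or a TATA box (TATAAA).
EREG: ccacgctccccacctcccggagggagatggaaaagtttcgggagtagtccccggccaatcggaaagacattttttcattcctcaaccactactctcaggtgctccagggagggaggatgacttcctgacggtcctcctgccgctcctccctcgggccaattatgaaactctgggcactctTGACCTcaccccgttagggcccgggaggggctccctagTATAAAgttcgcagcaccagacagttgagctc
AREG: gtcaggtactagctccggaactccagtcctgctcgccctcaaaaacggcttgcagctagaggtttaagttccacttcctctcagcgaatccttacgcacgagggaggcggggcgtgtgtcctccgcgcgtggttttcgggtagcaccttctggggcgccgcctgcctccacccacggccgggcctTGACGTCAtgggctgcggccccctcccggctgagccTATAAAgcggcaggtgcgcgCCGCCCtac
HBEGF: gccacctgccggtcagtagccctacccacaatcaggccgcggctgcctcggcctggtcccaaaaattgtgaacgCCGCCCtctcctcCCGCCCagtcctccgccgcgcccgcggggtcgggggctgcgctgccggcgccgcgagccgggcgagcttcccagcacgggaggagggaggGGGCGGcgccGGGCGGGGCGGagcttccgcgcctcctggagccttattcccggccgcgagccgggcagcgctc

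The EREG window held a TATA box 32 to 27 bases before the start and 1 nuclear receptor half-site, as TGACCT on the opposite strand, 70 to 65 bases before it. AREG held a TATA box at 29 to 24 bases, a CRE at 65 to 58 and a GC box at 9 to 4, and HBEGF held 5 GC boxes, 2 of which share a base. Among 35116 windows of the same length, 12.1% held the half-site, 10.7% the TATA box, 42.6% the GC box, 6.57% the AP-1 site and 1.65% the CRE. No motif searched overlapped another kind of motif in these 3 windows. Of the 10 genes, 8 had an entry in the RefSeq promoter table, and ERBB3 and NRG1 are named only. A match of letters is a description of the window and says nothing of binding.

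Of the 10 genes, 7 had at least 1 TPM in at least 3 libraries and were tested with limma on log2(scaled TPM + 1), fitted over all 18269 genes that passed that filter. EGF, ERBB3 and AREG did not pass and are given as levels only. Only 1 of the 7 passed an adjusted p of 0.05 (Benjamini-Hochberg) in any comparison with ethanol, namely EREG with A41. The background was low as well. With A41, 0.755% of all tested genes were called. That share was 0.0547% for bexarotene, 0.0821% for A34, 0.0438% for A80, 0.0328% for A98, and 0.203% for the mean of the 5 rexinoids. At an unadjusted limma p under 0.05 the 7 genes gave 3 for bexarotene (5.75% of all tested genes), 4 for A34 (10.7%), 5 for A41 (10.3%), 5 for A80 (9.43%) and 3 for A98 (6.63%). Whether a group's libraries were separate cultures is not stated. The p-values reflect only how far these libraries scatter, and that scatter may be technical.

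**Figure D2:**
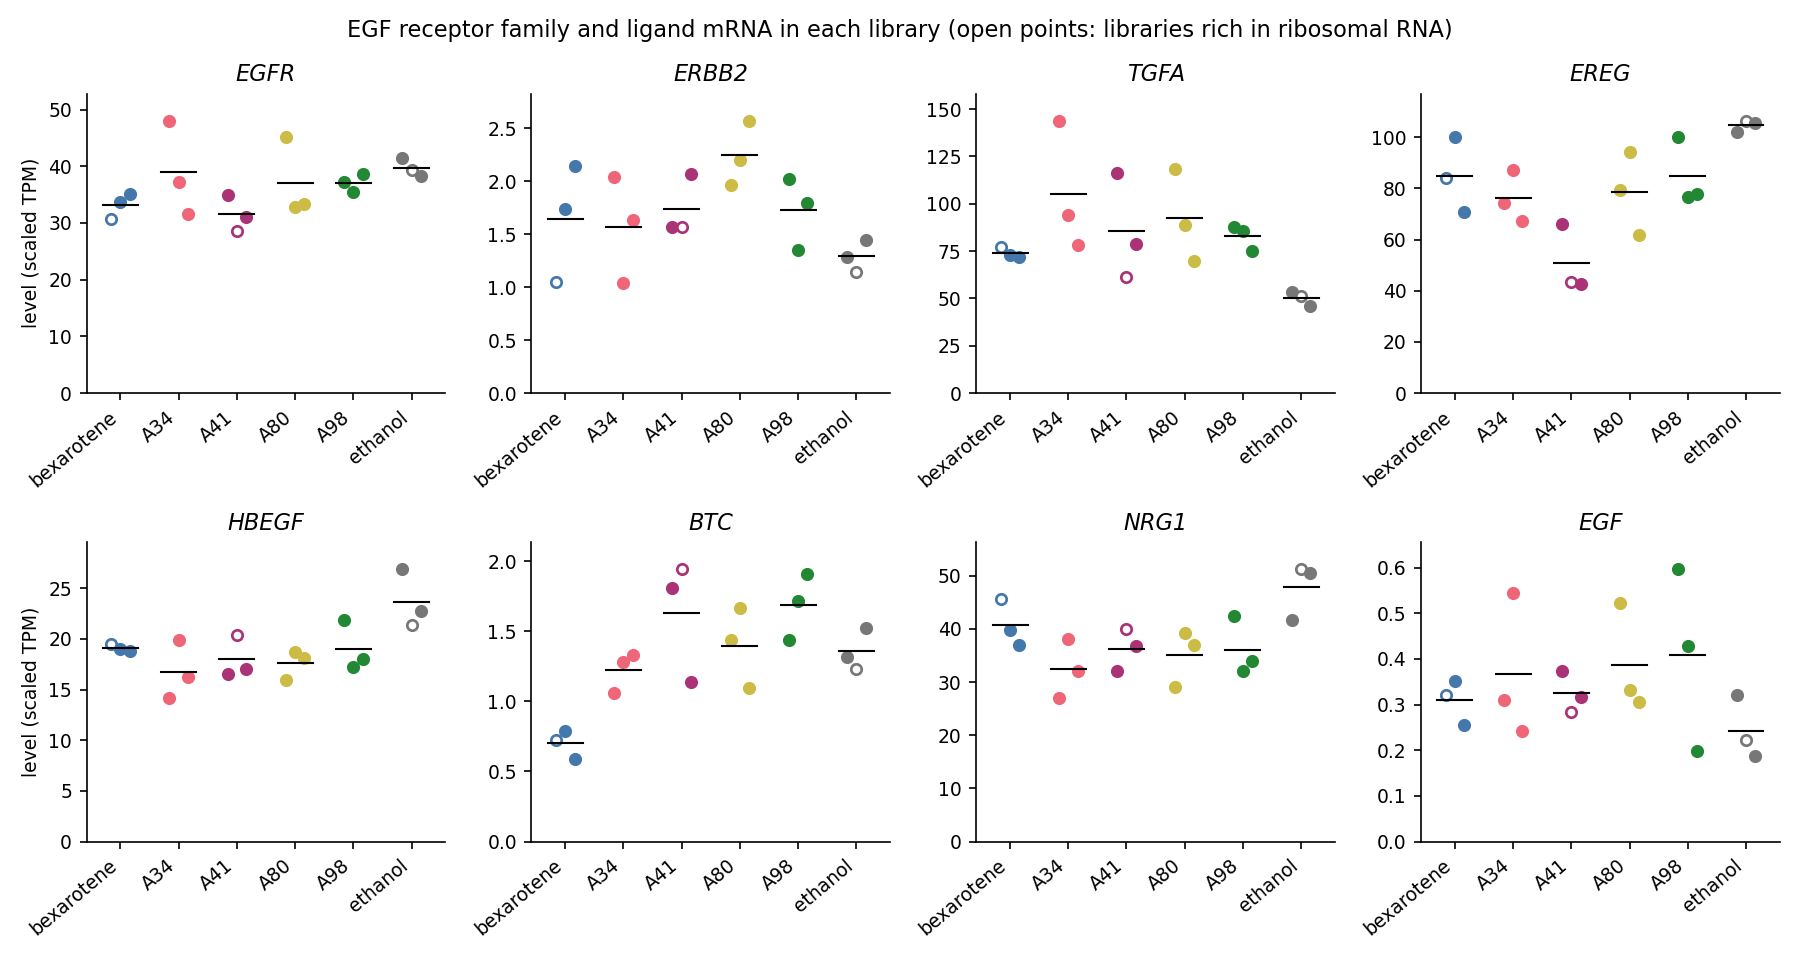
Level of 8 of the genes in each library, in scaled TPM, by treatment, with ethanol at the right of each panel. Points are libraries, bars are the means of 3, and open points are the 3 libraries rich in ribosomal RNA. All 15 rexinoid libraries lie above the 3 ethanol libraries for TGFA and below them for EREG.

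Among the receptors, EGFR lay between 28.5 and 48.0 scaled TPM in every library and passed no test. EGFR (ENSG00000146648, chr7:55019017-55211628, plus strand) measured 30.6, 33.8 and 35.1 scaled TPM with bexarotene, 48.0, 37.1 and 31.6 with A34, and 35.0, 28.5 and 31.0 with A41. With A80 it measured 45.1, 32.8 and 33.3 and with A98 37.3, 35.4 and 38.6, against 41.4, 39.4 and 38.3 in ethanol. Bexarotene and A41 lay below all ethanol libraries, while A34, A80 and A98 overlapped them, and replicate 1 of A34 and of A80 was the highest of all. The log2 fold change ranged from -0.33 (A41, limma adjusted p 0.405) to -0.05 (A34, adjusted p 0.927), and it turned positive in A34 (0.042) and A98 (0.079) when TPM was used as deposited, where A41 gave -0.65. It was also positive in A34 without A34 replicate 3 (0.088). Its 95% interval with A41 ran from -0.62 to -0.04, and with A34 from -0.34 to 0.24.

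ERBB2 was near the lower limit of what was tested. It averaged 1.64 ± 0.55 scaled TPM for bexarotene, 1.57 ± 0.50 for A34, 1.73 ± 0.29 for A41, 2.25 ± 0.31 for A80 and 1.72 ± 0.34 for A98, against 1.29 ± 0.15 in ethanol (SD, n = 3 each). The 3 A80 libraries (1.97, 2.20 and 2.57) and the 3 A41 libraries were above all of ethanol, and no comparison passed (A80: log2 fold change 0.50, SE 0.19, limma adjusted p 0.438). On GRCh38 the gene spans chr17:39687914-39730426 on the plus strand and overlaps MIEN1 and PGAP3 on the minus strand, which averaged 38.0 and 2.45 scaled TPM. Strand handling is not stated, so reads of ERBB2 and of those genes cannot be told apart where they overlap.

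TGFA, the transforming growth factor alpha gene (ENSG00000163235, chr2:70447284-70554193, minus strand), was the ligand with the highest mean in each coded group except A98, where EREG averaged slightly more. It measured 77.2, 72.7 and 72.0 scaled TPM with bexarotene, 144, 94.1 and 78.2 with A34, and 116, 61.2 and 78.5 with A41. With A80 it measured 119, 88.7 and 69.7 and with A98 87.8, 85.6 and 74.9, against 53.2, 51.2 and 46.2 in ethanol. All 15 rexinoid libraries lay above all 3 ethanol libraries, as did 0.816% of tested genes. Replicate 1 was the highest library in each of the 6 groups, ethanol included. It lay well above the others in A34, A41 and A80, and closer to them in bexarotene, A98 and ethanol.

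None of these differences passed the test, which had no replicate block. Log2 fold changes of TGFA were 1.01 for A34, 0.83 for A80, 0.71 for A41 and for A98, and 0.55 for bexarotene, each with SE 0.23. Their limma adjusted p-values were 0.162 for A34, 0.307 for A80, 0.249 for A41, 0.667 for A98 and 0.836 for bexarotene. For the mean of the 5 rexinoids the change was 0.76 (95% interval 0.38 to 1.14, limma adjusted p 0.123). The value for A41 was 0.46 without A41 replicate 1 and 0.37 with TPM as deposited. A test of the replicate numbers in the titles gave TGFA an F of 8.56 (limma p 0.00402, adjusted p 0.141), the smallest p among the 7 genes, while 1.01% of all tested genes passed that test. With those numbers as a block, TGFA passed for A34 (limma adjusted p 0.0119), A80 (0.0379) and the mean of the 5 (0.0112). It did not pass then for bexarotene (0.531), A41 (0.062) or A98 (0.208). Whether the numbers pair libraries was not settled, so the null of the main test depends on that choice.

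EREG, the epiregulin gene, fell with A41. It measured 66.3, 43.4 and 42.6 scaled TPM with A41, against 102, 106 and 106 in ethanol. The log2 fold change was -1.06 (SE 0.18, 95% interval -1.45 to -0.68, limma adjusted p 0.00894), and all 3 A41 libraries lay below all 3 of ethanol. Replicate 1 of A41 was the highest of its group for both EREG and TGFA, and the other two were nearly equal for EREG. The call was lost without A41 replicate 2 (-0.97, adjusted p 0.0555), without A41 replicate 3 (-0.95, adjusted p 0.0564) and when the 3 libraries rich in ribosomal RNA were dropped (-0.95, adjusted p 0.188). Over the 9 alternatives that did not leave out a single library, the limma adjusted p ranged from 0.00319 to 0.763.

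The other rexinoid groups also lay below ethanol for EREG, and A80 overlapped A41. It measured 84.2, 100 and 70.8 scaled TPM with bexarotene, 74.5, 87.1 and 67.4 with A34, 79.5, 94.4 and 61.9 with A80, and 99.9, 76.7 and 78.0 with A98. Every one of the 15 rexinoid libraries was below the lowest ethanol library, as was the case for 0.569% of tested genes. The log2 fold changes were -0.31 with bexarotene, -0.46 with A34, -0.43 with A80 and -0.31 with A98, with limma adjusted p-values of 0.867, 0.383, 0.484 and 0.801. For the mean of the 5 the change was -0.51 (95% interval -0.81 to -0.22, limma adjusted p 0.213). The value for bexarotene was -0.19 without bexarotene replicate 3, and that for A80 was -0.27 without A80 replicate 3. With TPM as deposited it was -0.51 for bexarotene and -0.13 for A98.

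Of 7 sums of cell type markers, 2 lay below ethanol without overlap with A41. The summed level of the 12 astrocyte and glioma markers, 8 of them tested, was 4585 to 4925 scaled TPM with A41, against 5568 to 5870 in ethanol. Most of that sum is VIM and CD44, which averaged 4035 and 1009 scaled TPM over the 18 libraries. GFAP averaged 0.783, so the sum says little of markers at such low levels. Neuronal markers, 4 of 6 tested, summed to 78.8 to 88.7 with A41 against 98.1 to 106 in ethanol. The other 5 sums overlapped ethanol with A41, among them leukocytes and microglia at 177 to 245 against 156 to 183 in ethanol. Most of that sum is CD68, which averaged 176 scaled TPM, while PTPRC averaged 0.0571. Likewise TUBB3, at 68.6, makes up most of the neuronal sum, while RBFOX3 averaged 0.185. Such sums therefore follow 1 gene and are no readout of a cell type. The astrocyte and glioma sum was also below all ethanol libraries with bexarotene (up to 5431), A34 (up to 5453) and A80 (up to 5545), while A98 (up to 5679) overlapped them. The neuronal sum was also below all ethanol libraries with bexarotene (up to 97.9) and A34 (up to 96.7), while A80 and A98 overlapped them. The part of these sums in the EREG result was not tested. The 3 genes whose log2 level followed EREG most closely over the 18 libraries, by root mean square difference after centring, were ADAMTS5 (0.195), HMGA2 (0.196) and RAB27B (0.214), against a median of 0.439 over all genes. HMGA2 measured 77.5, 68.2 and 77.9 scaled TPM with A41, against 128, 128 and 140 in ethanol. These genes were picked as the closest to EREG over the same libraries. Their distance below the median and their lower A41 levels are therefore partly set by that choice.

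HBEGF, the heparin-binding EGF-like growth factor gene, and NRG1 both had negative fold changes with every rexinoid, and neither passed. HBEGF averaged 19.1 ± 0.4 scaled TPM for bexarotene, 16.8 ± 2.9 for A34, 17.97 ± 2.1 for A41, 17.6 ± 1.5 for A80 and 19.0 ± 2.5 for A98, against 23.7 ± 2.9 in ethanol (SD, n = 3 each). Its groups did not overlap ethanol except for A98, whose highest library (21.9) exceeded the lowest of ethanol (21.4). The log2 fold change was largest with A34, -0.48 (SE 0.13, limma adjusted p 0.210), and -0.37 for the mean of the 5 (adjusted p 0.189).

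NRG1 averaged 40.8 ± 4.4 scaled TPM for bexarotene, 32.5 ± 5.6 for A34, 36.3 ± 3.9 for A41, 35.1 ± 5.3 for A80 and 36.1 ± 5.5 for A98, against 47.9 ± 5.3 in ethanol (SD, n = 3 each). A34, A41 and A80 lay below all ethanol libraries, and bexarotene and A98 overlapped them. The log2 fold change was -0.55 with A34 (SE 0.15, limma adjusted p 0.216) and -0.40 for the mean of the 5 (adjusted p 0.229). Its coverage was low for its TPM, which limits how firmly its level can be read.

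**Figure D3:**
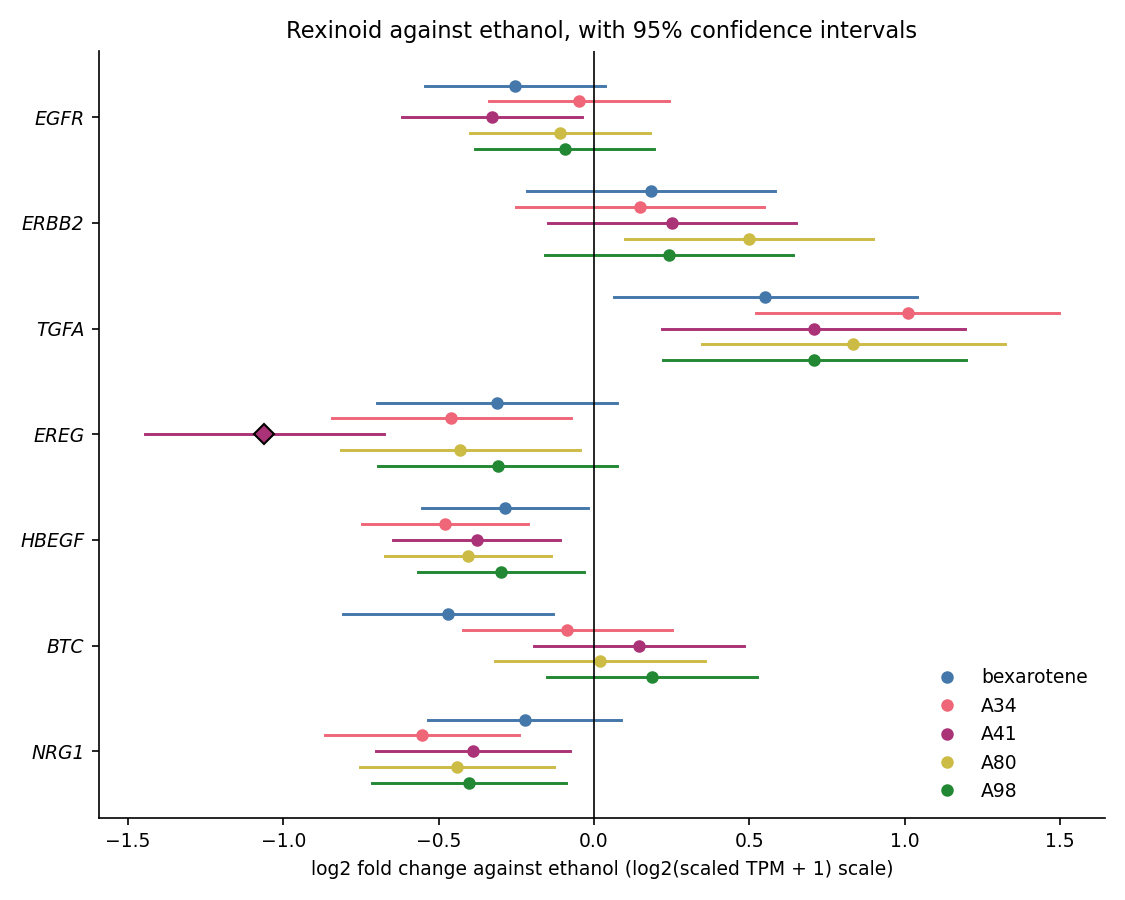
Log2 fold change of each of the 7 tested genes with each rexinoid against ethanol, on the log2(scaled TPM + 1) scale, with 95% confidence intervals from limma. The diamond marks the call past an adjusted p of 0.05, EREG with A41. All 5 intervals of TGFA lie above 0 and all 5 of HBEGF below it, before adjustment over 18269 genes.

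Counted together, 4 of the 7 members lay below all ethanol libraries for bexarotene (5.9% of tested genes did), 3 for A34 (8.36%), 4 for A41 (7.67%), 3 for A80 (7.78%) and 1 for A98 (8.18%). Those above all ethanol libraries were 1 for bexarotene (6.88% of tested genes), 1 for A34 (8.22%), 2 for A41 (8.27%), 2 for A80 (8.6%) and 1 for A98 (8.49%). The median log2 fold change of the 7 was -0.25, -0.09, -0.33, -0.11 and -0.09 for the 5 compounds in the same order, while the median of all tested genes was between -0.00680 and 0.00395. The 5 comparisons share their ethanol libraries.

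The ratio of the 2 most abundant ligands stood higher in every rexinoid library than in ethanol. Both levels come from the same library, so the ratio does not depend on the scaling. The ratio of TGFA to EREG was 0.727 to 1.02 for bexarotene, 1.08 to 1.93 for A34, 1.41 to 1.84 for A41, 0.940 to 1.49 for A80 and 0.878 to 1.12 for A98, against 0.437 to 0.522 in ethanol. No rexinoid library overlapped ethanol. This separation follows from the values already given, since every rexinoid library was above ethanol for TGFA and below it for EREG. This ratio was chosen after the values were seen, so it is given with no test.

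Summed over EREG, TGFA, HBEGF, BTC, EGF and AREG, the level of EGFR ligand transcripts was 179 ± 15 scaled TPM for bexarotene, 200 ± 35 for A34, 156 ± 40 for A41, 190 ± 34 for A80 and 189 ± 20 for A98, against 180 ± 4 in ethanol (SD, n = 3 each). TGFA made up 41.5%, 51.9%, 54.1%, 48.2% and 43.9% of that sum for the 5 compounds, against 27.8% in ethanol. EREG made up 47.2%, 38.7%, 32.5%, 41.4% and 44.9%, against 58.1% in ethanol. In every rexinoid group the range of the sum spanned that of ethanol, whereas the shares of TGFA and EREG did not overlap ethanol in any library.

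**Figure D4:**
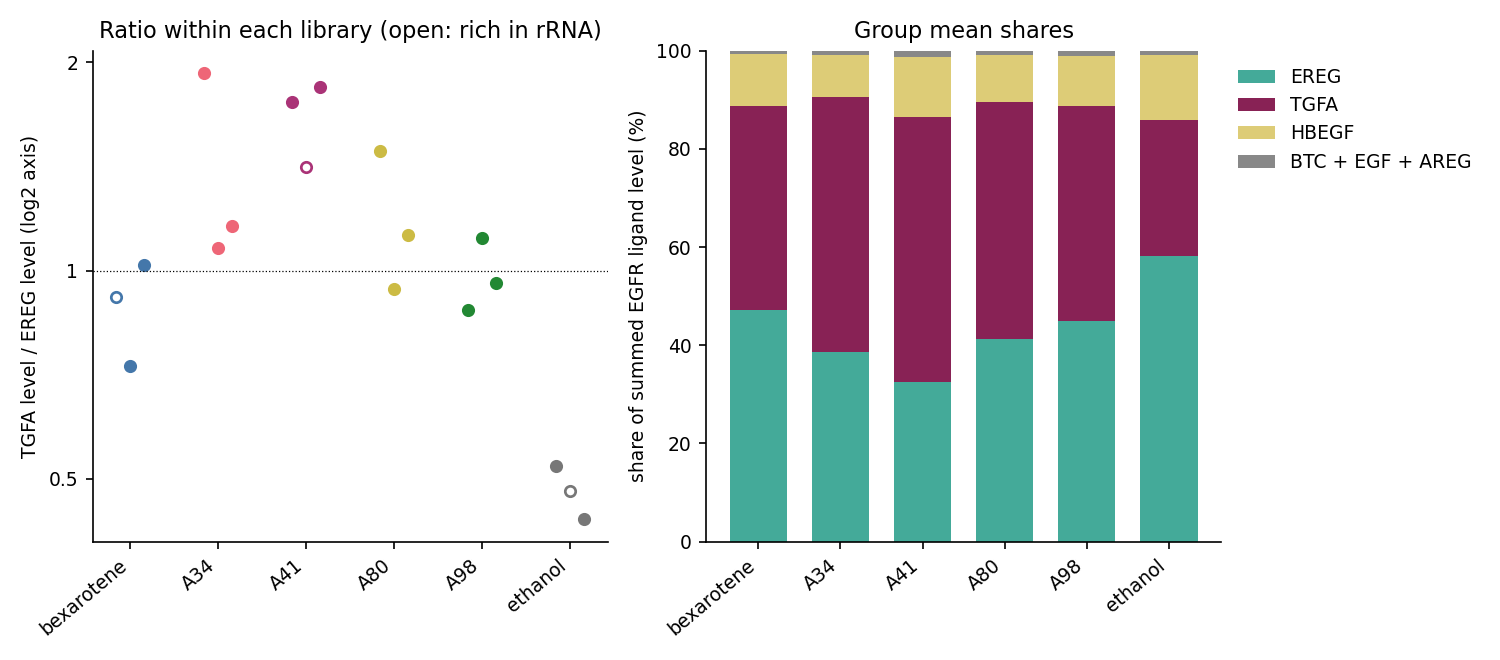
Left, the ratio of TGFA to EREG level within each library on a log2 axis, with open points for the 3 libraries rich in ribosomal RNA. Right, the mean share (%) of each EGFR ligand in their summed level by group. Ethanol libraries sit between 0.437 and 0.522, below every rexinoid library, and A41 has the lowest EREG share (32.5%).

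Betacellulin, encoded by BTC, had its lowest levels with bexarotene. It measured 0.727, 0.791 and 0.591 scaled TPM with bexarotene, 1.06, 1.28 and 1.33 with A34, and 1.81, 1.94 and 1.14 with A41. With A80 it measured 1.44, 1.66 and 1.09 and with A98 1.44, 1.72 and 1.91, against 1.32, 1.23 and 1.53 in ethanol. All 3 bexarotene libraries lay below all 3 of ethanol, as did 5.9% of tested genes, and the coded groups overlapped ethanol. No contrast passed: bexarotene against ethanol gave -0.47 (SE 0.16, limma adjusted p 0.836), and the values sit near the filter of 1 TPM.

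Against bexarotene no member passed with any coded compound, over 4 comparisons of 7 genes. The share of all tested genes called there was 0% for A34, 0.115% for A41, 0% for A80 and 0.00547% for A98. At an unadjusted limma p under 0.05 there were 2 of the 7 genes for A34 (5.2% of all tested genes), 2 for A41 (6.23%), 1 for A80 (6.06%) and 1 for A98 (6.86%). All 3 libraries of each coded compound lay above all 3 of bexarotene for BTC, as did 4.07% of tested genes for A34, 5.53% for A41, 5.46% for A80 and 6.69% for A98. BTC gave log2 fold changes of 0.38 for A34, 0.61 for A41, 0.49 for A80 and 0.66 for A98, with limma adjusted p-values of 0.914, 0.276, 0.799 and 0.639. The 95% interval was 0.28 to 0.95 for A41 and 0.32 to 0.99 for A98.

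For EREG, A41 was lower than the other compounds by a margin that missed the threshold. The log2 fold change of A41 was -0.75 against bexarotene (95% interval -1.13 to -0.36, limma adjusted p 0.216), -0.60 against A34 (-0.99 to -0.22, adjusted p 0.392), -0.63 against A80 (-1.02 to -0.25, adjusted p 0.296) and -0.75 against A98 (-1.14 to -0.37, adjusted p 0.189). The share of tested genes called was 0.0712% against A34, 0.126% against A80 and 0.131% against A98. Tested jointly over the 5 rexinoids for any difference, by an F test, EREG had an unadjusted p of 0.00421 (limma adjusted p 0.489) and BTC 0.00604 (adjusted p 0.51), and 0.0657% of tested genes passed. The fall of EREG was called for A41 and not for the others, and it was not shown to differ between compounds.

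Around the receptor, few genes passed, all of them with A41. Of 12 genes that release or restrain release of the ligands, such as the sheddases ADAM10 and ADAM17, 0 passed limma in any comparison with ethanol, and 2 of the 12 had an unadjusted p under 0.05 with A41, as did 10.3% of all tested genes. With each other compound 1 of the 12 did. ADAM19 came nearest, at 10.4 ± 1.7 scaled TPM with A41 against 6.97 ± 1.34 in ethanol (SD, n = 3 each, log2 fold change 0.52, limma adjusted p 0.0900). Of 27 receptor adaptors and downstream kinases 0 passed limma in any of them, with 3 of 27 at an unadjusted p under 0.05 with A41, 2 with A34 and 0 with the others. NRG2 and NRG4, the 2 of 5 other family genes that could be tested, did not pass either, with 0 of the 2 at an unadjusted p under 0.05.

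Of 20 genes listed for restraint or turnover of the receptors, 19 were tested and 1 passed with A41, where 0.755% of all tested genes did. Not every one of them lowers receptor signalling, so the signs of their changes have no single reading. The list was chosen with earlier results of these data known, so the counts do not test it. For the other compounds 0 passed limma. At an unadjusted p under 0.05 there were 2 of the 19 for bexarotene (5.75% of all tested genes), 4 for A34 (10.7%), 3 for A41 (10.3%), 3 for A80 (9.43%) and 1 for A98 (6.63%). PTPRJ, a receptor phosphatase that can dephosphorylate EGFR, rose to 19.7, 21.5 and 22.7 scaled TPM with A41, against 11.3, 12.6 and 11.7 in ethanol. The log2 fold change was 0.79 (SE 0.10, limma adjusted p 0.000734), and the A41 libraries lay above every other library. The median log2 fold change of the 19 was -0.05 with A41, with 6 positive and 13 negative. Between compounds, 1 of the 19 was called higher with A41 against A34, 1 against A80 and 1 against A98, and 0 against bexarotene. The shares of all tested genes called there were 0.0712%, 0.126%, 0.131% and 0.115%.

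Of 27 genes induced by ERK signalling, 1 rose and 3 fell with A41, where 0.755% of all tested genes passed. With the other compounds 0 passed limma against ethanol. Between compounds, 1 of the 27 was called lower with A41 against A98, and 0 with A41 against bexarotene, A34 or A80. The genes of this list, too, were chosen with earlier results of these data known, so the counts do not test the list. The genes at an unadjusted p under 0.05 numbered 5 for bexarotene (5.75% of all tested genes), 7 for A34 (10.7%), 9 for A41 (10.3%), 3 for A80 (9.43%) and 2 for A98 (6.63%). SPRY2, an inhibitor of receptor signalling to RAS, measured 33.7, 39.1 and 35.1 scaled TPM with A41, against 61.2, 62.3 and 65.3 in ethanol (log2 fold change -0.79, SE 0.10, limma adjusted p 0.000841). Its relative SPRY4 averaged 13.9 ± 0.6 with A41 against 18.9 ± 0.7 in ethanol (SD, n = 3 each, -0.42, adjusted p 0.0343 from limma). DUSP4, a phosphatase of ERK and related kinases, averaged 19.8 ± 0.6 with A41 against 27.6 ± 1.2 in ethanol (SD, n = 3 each, -0.46, adjusted p 0.00893 from limma). LIF, a cytokine of the IL6 family, rose to 199, 213 and 134 scaled TPM with A41, against 79.0, 62.0 and 70.5 in ethanol (1.33, SE 0.26, limma adjusted p 0.0226).

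These calls were not equally firm. PTPRJ and SPRY2 passed with each of the 6 libraries left out in turn (highest adjusted p 0.00656 and 0.00817). DUSP4 was lost without ethanol replicate 1 (adjusted p 0.0580, the highest of a range from 0.0252). LIF passed in 1 of the 6 and SPRY4 in 0 of the 6, with limma adjusted p-values up to 0.116 and 0.153. The median log2 fold change of the 27 ERK-induced genes was -0.05 with A41.

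**Figure D5:**
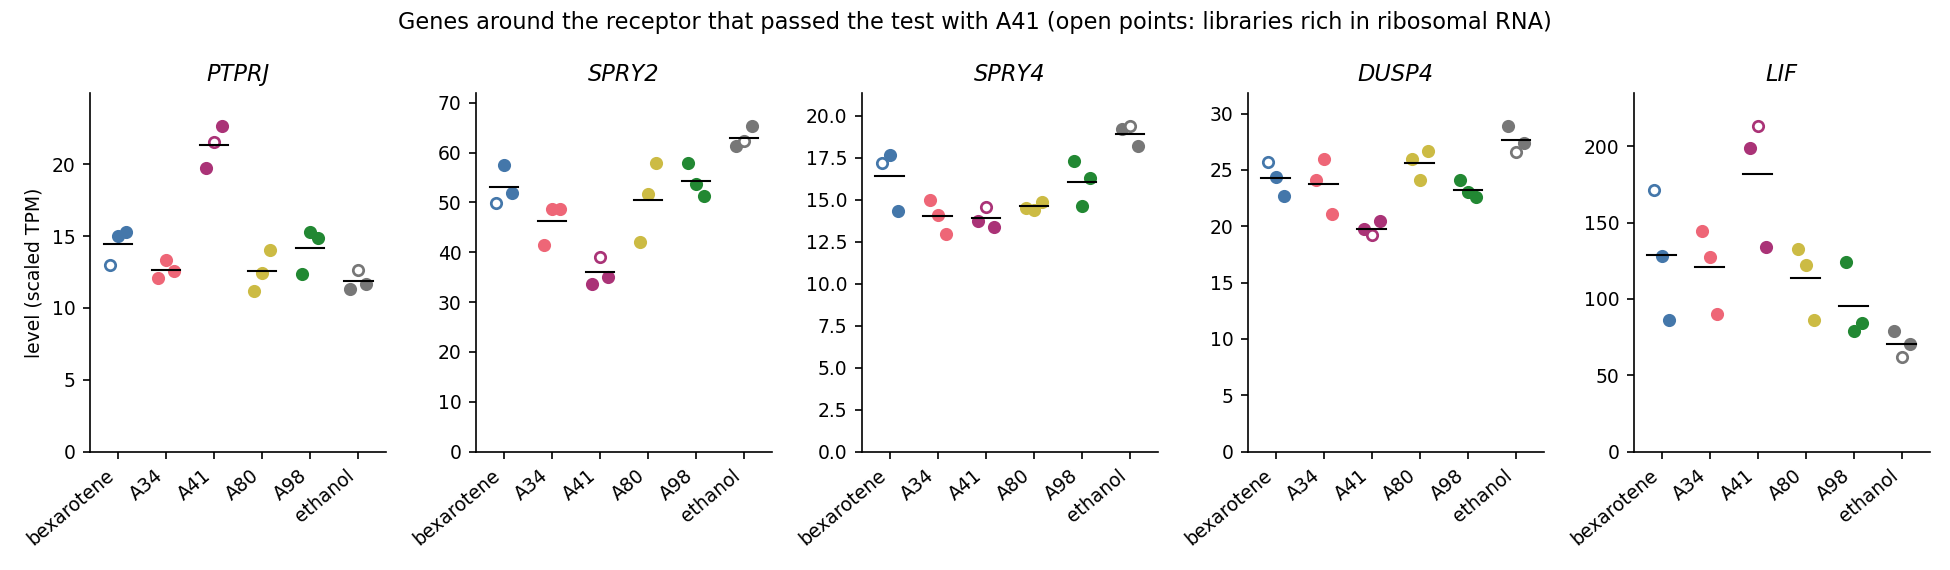
Levels in scaled TPM of the 5 genes around the receptor that passed with A41, by treatment, with ethanol at the right. Points are libraries, bars are the means of 3, and open points are the 3 libraries rich in ribosomal RNA. PTPRJ lies between 19.7 and 22.7 with A41, and SPRY2 between 33.7 and 39.1.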

How the data were processed

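RNA of 18 U87 libraries was depleted of ribosomal RNA and sequenced as pairs, per the labels' protocols. STAR, StringTie and MultiQC with build GRCh38 are named in the submitters' processing notes. Versions, annotation release and strand handling: not given in the sources used here. The deposited tables of the authors hold TPM, FPKM and coverage (mean signal in reads per base), per the file headers, and no counts. The names of the A98 tables say A90. Groups and replicate numbers follow the titles. Depth was read from coverage over FPKM. TPM was divided by median-of-ratios factors (0.419 to 1.21, from 16349 genes). The 18269 genes reaching 1 TPM in 3 or more libraries were fitted as log2(scaled TPM + 1) with limma 3.58.1 in R 4.3.3, 6 groups in 1 model, with a trend and 12 residual degrees of freedom. Tests were two-sided and Benjamini-Hochberg adjusted over all genes of a comparison, with a threshold of 0.05. The log2(value + 1) scale understates changes of low genes. The members, gene lists and ratio were chosen with earlier results of these data known. All 10 members were named, with, from each list, genes past the threshold or otherwise those of smallest p. No 2 libraries were identical. The fit was tested on simulated data.

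Replicate numbers in the titles were checked as pairs. Same-numbered deviations correlated above 0.1 in every pair only for A41 against ethanol (0.173, 0.307 and 0.119). Replicate 2 is rich in ribosomal RNA in both of these groups, and the table names number it 3 in ethanol and 2 in A41. Paired libraries and shared ribosomal RNA therefore cannot be told apart in that comparison. With the replicate block no call of a member changed there (EREG adjusted p 0.00319).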

Additional observations from a re-analysis of the deposited data

How the results depend on the processing

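The fall of EREG with A41 kept its direction under every alternative run (log2 fold change -1.39 to -0.95) and passed in 6 of 9 that kept each group at 3 libraries or dropped those rich in ribosomal RNA. It missed with TPM as deposited (adjusted p 0.763), with only the groups compared (0.114) and when the 3 libraries rich in ribosomal RNA were dropped (0.188), so 0 members were called there with A41. TGFA, HBEGF and NRG1 kept their directions under every alternative run. The cause of the losses was not tested. Of the pathway calls with A41, PTPRJ and SPRY2 passed in 8 of 9 alternatives, DUSP4 in 6, and LIF and SPRY4 in 5. All 5 missed with TPM as deposited (adjusted p 0.823). For ERBB2 and BTC, near the filter of 1 TPM, depth limits the precision.

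All genes called against ethanol numbered 10 for bexarotene, 15 for A34, 138 for A41, 8 for A80, 6 for A98 and 37 for the mean of the 5. With TPM as deposited, which moved the median log2 fold change of all genes by -0.17 with bexarotene, -0.27 with A41 and 0.15 with A98, they numbered 0, 0, 4, 0, 2 and 1. EGFR then turned to 0.042 with A34 and 0.079 with A98, and BTC to -0.055 with A41. With no filter, 20 genes were called with bexarotene and 14 with A80. With only the groups compared, the counts were 4 with bexarotene, 1 with A34, 33 with A41 and 0 with A80. Without the libraries rich in ribosomal RNA they were 2 with bexarotene, 48 with A41, 2 with A80 and 16 for the mean, and BTC turned to -0.019 with A80. With scaled coverage in place of TPM, an alternative chosen after seeing the data, A34 called 23 genes, and 1 member passed for A41 against bexarotene, BTC (1.11, adjusted p 0.0455, the lowest of a range up to 1 over 9 alternatives).

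Leaving out 1 library at a time gave 5 to 9 calls for bexarotene, 8 to 18 for A34, 71 to 113 for A41, 2 to 7 for A80, 5 to 8 for A98 and 15 to 41 for the mean, with 0 to 1 members called for A41. BTC then ranged from -0.060 to 0.11 with A80 and from -0.079 to 0.0096 for the mean, and EGFR from -0.21 to 0.088 with A34.

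Except for A41 against ethanol, where pairing was not settled, no comparison had every same-numbered pair correlated above 0.1 (lowest correlation -0.356 to 0.0204). Across the 6 groups the title numbers still called 184 genes (1.01% of tested genes) by a limma F test. Whether same-numbered libraries share a batch was not tested, so the numbers were not used as pairs in the main fit. Not every library correlated best with its own number: 2 of 6 did for bexarotene, 4 for A34, 3 for A80 and 1 for A98, against 6 for A41. With a replicate block from the titles, 166 genes and 1 member were called with A34, 117 and 1 with A80, and 147 and 1 for the mean, the member being TGFA each time (adjusted p 0.0119, 0.0379 and 0.0112). With a replicate block from the table names, 57 genes and 2 members were called with A34, 51 genes with A80, 15 with A98, and 99 and 2 for the mean, where the members were TGFA (adjusted p 0.0240 and 0.0147) and HBEGF (0.0396 and 0.0262), and BTC turned to -0.019 with A80. The block changed no other call of a member.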

Other observations

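NRG1 had a coverage far below what its TPM would give in most genes. Coverage divided by FPKM and by library depth was 0.00369 to 0.00487 for NRG1, position 27 from the lowest among 18269 tested genes, against a median of 0.644 over all of them. EREG stood at 0.795, HBEGF at 0.760, TGFA at 0.629 and EGFR at 0.216. The tables give 1 value per gene, so which NRG1 transcripts carry its TPM was not tested.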
